A study of Mus musculus with 24 samples.

Results

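The 9 genes Pald1, Cspg4, Cgnl1, Chst3, Spsb1, Hdac9, Ctla2a, B3gnt5 and Jag1 were chosen because lysophosphatidic acid (LPA) changed them in macrophages that lack the receptor GPR35. They were 9 of the 11590 genes in the table, and all 9 were measured in every library. The cells were bone marrow-derived macrophages (BMDM) of male C57BL/6 mice, either wild-type (WT) or GPR35-deficient (KO), grown in M-CSF. On day 7 they were left untreated (Cont) or received 10 µM LPA or 10 ng/mL lipopolysaccharide (LPS) for 4 h. Each of the 6 groups had 4 libraries, 24 in all, and the study asked how GPR35 bears on the response to LPA. The labels give neither the deleted part of Gpr35 nor the age of the animals, and they do not say whether replicates were separate animals, so p-values measure the spread between these samples, which may be technical.

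LPA is a small lipid that signals to cells through several G protein-coupled receptors, and it has been proposed as a ligand of GPR35. LPS, a component of the outer membrane of Gram-negative bacteria, acts through a Toll-like receptor and drives a broad inflammatory programme in macrophages. The 9 genes encode proteins of different kinds. Cspg4 and Chst3 belong to the chondroitin sulfate proteoglycans and the enzymes that build them, Cgnl1 to the plaque of cell junctions, and Jag1 to the ligands of Notch receptors. B3gnt5 makes glycosphingolipids, Spsb1 hands proteins to a ubiquitin ligase, Ctla2a inhibits cysteine proteases, Hdac9 is a histone deacetylase and Pald1 encodes a protein with phosphatase-like domains.

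WT libraries held 32.0 to 46.7 M counts and KO libraries 15.2 to 21.5 M. Per the labels, KO libraries came from 1 sequencing lane and WT libraries from a pair of lanes, so genotype, depth and lane cannot be told apart. Gpr35 lay at 2.60 ± 0.214 CPM (counts per M counts of the library, mean ± SD, n = 4) in untreated WT cells, and no KO library held more than 5 counts of it. The 9 genes were chosen on the LPA response of KO cells. Every comparison that includes untreated or LPA-treated KO cells is therefore given for them as a description with its standard error (SE) and no test. Such a choice favours large changes in KO, so their size relative to the changes in WT may be overstated. The comparisons within WT cells, and that of KO with WT cells after LPS, set against each other only libraries outside that LPA response. The 9 were chosen with earlier results of these data known, so whether WT values bore on the choice is not known. These comparisons were tested with edgeR across all genes. The spread in these tests was estimated over all 24 libraries, the untreated and LPA-treated KO ones included.

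In KO cells, LPA went with higher levels of 8 of the genes and a lower level of Hdac9, which is the pattern they were chosen for. The log2 differences between LPA-treated and untreated KO cells ran from 0.85 ± 0.19 (SE) for Jag1 to 1.57 ± 0.20 for Pald1 among the higher genes, and the value was -1.06 ± 0.23 for Hdac9. The 4 LPA libraries lay outside the range of the 4 untreated libraries for each of the 9 (8.84% of all genes). In this comparison edgeR called 304 of 11590 genes (2.62% of those tested), of which 181 were higher (1.56%) and 123 lower (1.06%), and the 9 genes held places 7 to 39 among the 304 by size of change. With the replicate number as a block, fitted to the KO libraries alone, 875 genes were called. Leaving out a library gave 168 without KO LPA replicate 3, 184 without KO Cont replicate 4 and 190 without KO Cont replicate 3. Nothing is read from these counts about the 9 genes.

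**Figure D1:**
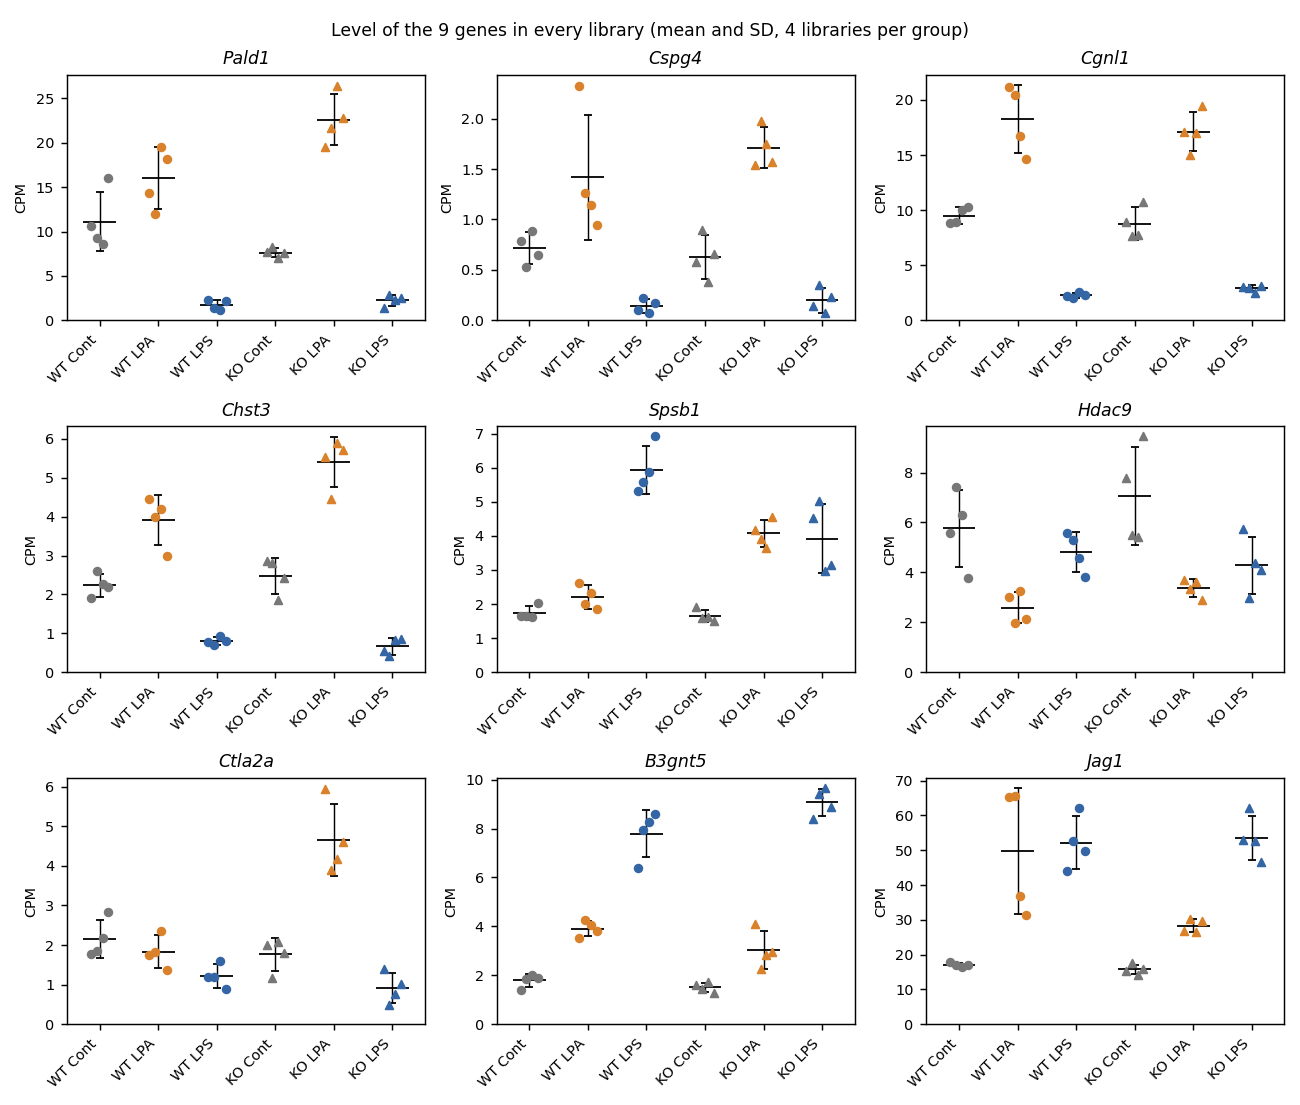
Level of each of the 9 genes in CPM (vertical axes, each starting at 0) in the 24 libraries, by group (WT circles, KO triangles), with lines for the mean and bars for the SD of 4 libraries. LPA-treated KO libraries (19.6 to 26.4 CPM for Pald1) sit apart from untreated KO libraries (7.06 to 8.30 CPM) in every panel, while the LPS libraries are at the bottom for Pald1, Cspg4, Cgnl1 and Chst3 and at or near the top for B3gnt5 and Jag1.

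In WT cells, 7 of the 9 genes were called with LPA, each in the direction of its difference in KO. Cspg4, Cgnl1, Chst3, B3gnt5, Jag1 and Pald1 rose, Hdac9 fell, and Spsb1 and Ctla2a were not called (edgeR, Benjamini-Hochberg adjusted p below 0.05). Over all genes 44.6% were called in this comparison, 23.5% higher and 21.1% lower, so 7 called genes of 9 are to be read against a background in which nearly as many genes were called as not. For 6 of the 9, the 4 LPA libraries lay outside the range of the untreated ones (34.9% of all genes did). The median log2 change of the 9 was 0.80, against -0.01 over all genes. Scaling by library totals in place of TMM factors lowered the share of higher genes among those called from 52.7% to 40.3% and moved the median of all genes by -0.05.

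LPS split the same genes. In WT cells it raised B3gnt5, Spsb1 and Jag1 and lowered Pald1, Cspg4, Cgnl1, Chst3 and Ctla2a, while Hdac9 was not called. The background was high, since edgeR called 84.2% of all genes with LPS (40.6% higher and 43.6% lower). The ranges of treated and untreated libraries did not overlap for 8 of the 9 genes (80.8% of all genes), and the median change was -0.82, against -0.04 over all genes. Scaling by library totals shifted the median of all genes with LPS by -0.56 on the log2 scale and reduced the share of higher calls from 48.3% to 23.3%, so changes with LPS are relative to the TMM scale. The direction of all 9 genes was the same on both scales, and Hdac9 was then called as lower (-0.82, edgeR adjusted p = 0.00131).

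**Figure D2:**
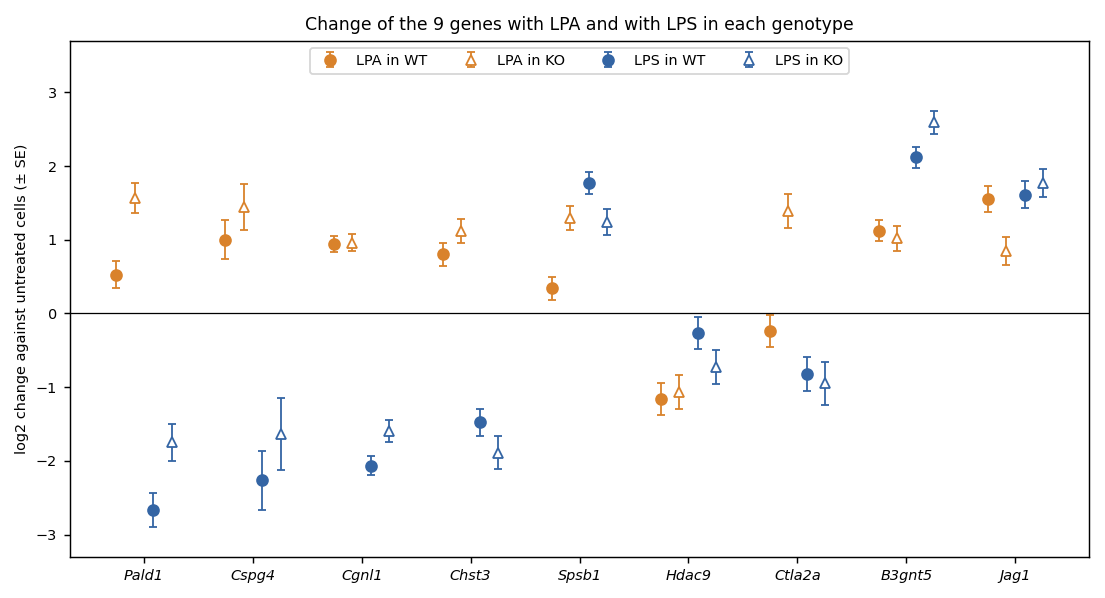
Log2 change against untreated cells of the same genotype (vertical axis, bars ± SE) for the 9 genes with LPA (orange) and LPS (blue) in WT (filled circles) and KO (open triangles). Pald1, Cspg4, Cgnl1 and Chst3 lie above 0 with LPA and below 0 with LPS in both genotypes, whereas B3gnt5, Jag1 and Spsb1 lie above 0 in all 4 comparisons. For Spsb1 the change with LPA in WT (0.34) was not called.

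Pald1, Cspg4, Cgnl1 and Chst3 shared a profile in which LPA gave the highest and LPS the lowest levels in both genotypes. Pald1 (chromosome 10, 61319656 to 61383546, minus strand, GRCm38.p6) encodes paladin, a protein studied mainly in blood vessels. It stood at 10.6, 9.31, 8.61 and 16.03 CPM in the untreated WT libraries and at 14.4, 12.0, 19.6 and 18.2 CPM with LPA. These ranges overlapped, because the highest untreated library, WT Cont replicate 4, exceeded WT LPA replicates 1 and 2. The log2 change with LPA in WT was 0.53 ± 0.19 (edgeR adjusted p = 0.0274), with an adjusted p of 0.00257 to 0.0951 over 15 alternatives. The call was lost with library totals and with only the compared libraries (here all WT ones, those with LPS included). It was also lost without WT Cont replicate 1, 2 or 3 or WT LPA replicate 3 or 4 in turn. The log2 changes in these fits were 0.42 to 0.53. In KO cells Pald1 stood at 7.66, 8.30, 7.06 and 7.54 CPM without treatment and at 19.6, 21.7, 26.4 and 22.8 CPM with LPA. All 4 treated KO libraries lay above all untreated ones, and the LPA difference was 1.04 ± 0.27 larger in KO than in WT on the log2 scale. Against WT, the KO level was -0.54 ± 0.20 without treatment and 0.50 with LPA on the log2 scale, without overlap of the libraries. With LPA the margin was very small, since the lowest KO and the highest WT library both stood at 19.6 CPM when rounded. After LPS, Pald1 was at 2.24, 1.37, 1.12 and 2.22 CPM in WT, a fall of -2.67 ± 0.23 (edgeR adjusted p = 3.2e-10), and at 1.40, 2.90, 2.29 and 2.51 CPM in KO. The groups ran in the order KO LPA, WT LPA, WT Cont, KO Cont, KO LPS and WT LPS, and of these neighbours only WT LPA with WT Cont and KO LPS with WT LPS overlapped.

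Cspg4 (chromosome 9, 56865104 to 56899870, plus strand) encodes NG2, a membrane-spanning chondroitin sulfate proteoglycan best known from pericytes and oligodendrocyte precursors. It was the lowest of the 9 genes, with 573 counts over the 24 libraries and 0.0996 CPM per kb on average. In WT cells it was at 0.785, 0.533, 0.891 and 0.651 CPM without treatment and at 2.32, 1.26, 1.14 and 0.945 CPM with LPA. The ranges did not overlap, and WT LPA replicate 1 alone held 102 of its counts. The log2 change was 1.00 ± 0.26 (edgeR adjusted p = 0.00403), and without WT LPA replicate 1 it was 0.64. In KO cells Cspg4 was at 0.579, 0.899, 0.379 and 0.656 CPM without treatment and at 1.54, 1.98, 1.75 and 1.57 CPM with LPA, a log2 difference of 1.44 ± 0.31. With LPS it was at 0.105, 0.222, 0.0748 and 0.176 CPM in WT (-2.26 ± 0.40, edgeR adjusted p = 1.5e-05) and at 0.140, 0.353, 0.0693 and 0.235 CPM in KO. Those values rest on 1 to 6 counts per library, so the size of the fall is loosely fixed. The LPA difference in KO exceeded that in WT by 0.44 ± 0.41, about 1 SE.

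Cgnl1 (chromosome 9, 71626507 to 71809300, minus strand) encodes paracingulin, a plaque protein of tight and adherens junctions. Its LPA response was nearly equal in the genotypes. In WT cells Cgnl1 went from 8.81, 8.93, 9.97 and 10.3 CPM to 21.2, 20.4, 16.7 and 14.6 CPM with LPA, a rise of 0.94 ± 0.11 on the log2 scale (edgeR adjusted p = 1.8e-06). In KO cells it was at 8.95, 7.61, 7.77 and 10.8 CPM without treatment and at 17.1, 15.0, 17.0 and 19.4 CPM with LPA, a log2 difference of 0.96 ± 0.12. Treated and untreated libraries did not overlap in either genotype, and the difference between the genotypes' LPA changes was 0.02 ± 0.16. LPS brought Cgnl1 down to 2.17, 2.07, 2.54 and 2.29 CPM in WT (-2.06 ± 0.13, edgeR adjusted p = 8.9e-13), and it was at 3.07, 2.97, 2.496 and 3.14 CPM in LPS-treated KO cells. WT LPA with KO LPA, WT Cont with KO Cont, and KO LPS with WT LPS overlapped, so its levels formed 3 steps by treatment, with the genotypes overlapping at each.

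Chst3 (chromosome 10, 60181527 to 60222114, minus strand) encodes a sulfotransferase that places sulfate on the chondroitin chains of proteoglycans. LPA raised it in WT from 1.90, 2.61, 2.28 and 2.18 CPM to 4.46, 4.00, 4.20 and 2.98 CPM (0.80 ± 0.15, edgeR adjusted p = 2.8e-04). In KO cells it was at 2.85, 2.80, 1.85 and 2.42 CPM without treatment and at 5.55, 4.47, 5.89 and 5.71 CPM with LPA, a log2 difference of 1.13 ± 0.16. LPA libraries lay above untreated ones in both genotypes, and those of KO lay above those of WT by a narrow margin. LPS lowered Chst3 in WT to 0.771, 0.703, 0.935 and 0.810 CPM (-1.48 ± 0.18, edgeR adjusted p = 8.6e-08), and it was at 0.558, 0.424, 0.832 and 0.863 CPM in KO.

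The start regions of these 4 genes are shown because the genes moved together across all 6 groups. Each line gives 300 bases from RefSeq (GRCm38.p6), from 250 before to 50 after an annotated start and read along the gene's strand, with capitals on each GGGCGG, a sequence bound by SP and KLF factors, or on its complement CCGCCC. The windows are chr10:61383290-61383589 (minus strand) for Pald1, chr9:56864854-56865153 (plus) for Cspg4, chr9:71771553-71771852 (minus) for Cgnl1 and chr10:60219211-60219510 (minus) for Chst3. Those of Cgnl1 and Chst3 start inside the annotated gene.
Pald1: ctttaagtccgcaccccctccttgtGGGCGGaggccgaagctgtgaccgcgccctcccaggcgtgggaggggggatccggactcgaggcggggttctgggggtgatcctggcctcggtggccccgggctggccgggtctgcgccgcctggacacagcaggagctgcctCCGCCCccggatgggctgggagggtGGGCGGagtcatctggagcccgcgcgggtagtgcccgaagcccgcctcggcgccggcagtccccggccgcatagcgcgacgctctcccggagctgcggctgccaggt
Cspg4: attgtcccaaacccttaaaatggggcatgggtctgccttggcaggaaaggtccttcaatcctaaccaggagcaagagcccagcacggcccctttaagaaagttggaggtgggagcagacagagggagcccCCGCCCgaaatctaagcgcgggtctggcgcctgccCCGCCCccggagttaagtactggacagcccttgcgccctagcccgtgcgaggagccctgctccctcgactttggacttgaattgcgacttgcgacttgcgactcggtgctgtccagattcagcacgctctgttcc
Cgnl1: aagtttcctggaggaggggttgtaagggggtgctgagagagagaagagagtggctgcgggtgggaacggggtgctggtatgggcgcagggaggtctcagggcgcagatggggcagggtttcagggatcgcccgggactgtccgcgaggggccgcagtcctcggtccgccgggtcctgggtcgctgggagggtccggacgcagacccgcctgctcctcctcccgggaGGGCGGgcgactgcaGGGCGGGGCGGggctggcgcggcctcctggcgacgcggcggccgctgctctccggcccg
Chst3: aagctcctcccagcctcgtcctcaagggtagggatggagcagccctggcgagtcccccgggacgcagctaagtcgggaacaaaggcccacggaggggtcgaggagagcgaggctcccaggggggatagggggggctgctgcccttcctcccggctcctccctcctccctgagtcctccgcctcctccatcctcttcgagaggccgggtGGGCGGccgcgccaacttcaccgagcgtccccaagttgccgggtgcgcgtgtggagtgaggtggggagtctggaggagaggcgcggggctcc
All 4 windows held GGGCGG on either strand, as did those of B3gnt5 and Spsb1, whose LPS changes went the other way, and 35.7% of 32851 RefSeq promoter windows, and the last pair of matches in Cgnl1 overlap by 1 base. Their GC content was 60% to 74.7%. None held TGANTCA, the AP-1 motif (in 7.81% of all windows), or the TEAD motif GGAATG (14.7%), the cyclic AMP element core TGACGT (7.51%) or a match to the NF-kB, CArG box or MEF2 motif (4.51%, 1.63% and 3.19%). A match describes the letters and shows no binding.

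B3gnt5 and Jag1 were raised by LPA and by LPS. B3gnt5 (chromosome 16, 19760192 to 19772760, plus strand) encodes the transferase that adds N-acetylglucosamine to lactosylceramide, the step that opens the lacto-series glycosphingolipids. In WT cells it went from 1.40, 1.85, 2.03 and 1.90 CPM to 3.53, 4.25, 4.03 and 3.81 CPM with LPA (1.12 ± 0.14, edgeR adjusted p = 3.6e-06). In KO cells it was at 1.60, 1.43, 1.70 and 1.27 CPM without treatment and at 4.11, 2.26, 2.82 and 2.95 CPM with LPA, a log2 difference of 1.02 ± 0.17. The LPA libraries of both genotypes lay above all untreated ones, and they overlapped each other. With LPS, B3gnt5 reached 6.38, 7.95, 8.26 and 8.59 CPM in WT (2.12 ± 0.14, edgeR adjusted p = 2.0e-12) and 8.37, 9.40, 9.64 and 8.87 CPM in KO. LPA therefore left it below its LPS level, by -0.997 ± 0.134 in WT (edgeR adjusted p = 4.3e-07).

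The start region of B3gnt5 is shown because it held matches that the co-moving genes above lack. In chr16:19759984-19760283 (plus strand, RefSeq, GRCm38.p6), capitals mark TGACGT, the core of a cyclic AMP response element, at -70 from the start, and GGAATG, the TEAD motif, at -27. Both matches are on the opposite strand, so they read ACGTCA and CATTCC.
B3gnt5: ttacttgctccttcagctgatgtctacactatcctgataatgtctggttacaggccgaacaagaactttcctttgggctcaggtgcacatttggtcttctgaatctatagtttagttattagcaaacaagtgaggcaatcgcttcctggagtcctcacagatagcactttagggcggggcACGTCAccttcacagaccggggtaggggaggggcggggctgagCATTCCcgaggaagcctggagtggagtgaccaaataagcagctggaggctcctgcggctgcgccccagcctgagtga
The windows of Jag1 and Spsb1, which LPS also raised in WT, held neither TGACGT nor GGAATG. The full element TGACGTCA was in none of the 11 windows of the 9 genes, against 1.79% of all windows.

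Jag1 (chromosome 2, 137081451 to 137116520, minus strand) encodes the Notch ligand Jagged1 and was the most abundant of the 9 genes, at 6.57 CPM per kb on average. In untreated WT cells it was at 17.8, 17.1, 16.4 and 16.9 CPM, and with LPA at 65.2, 65.6, 36.9 and 31.5 CPM. All 4 LPA libraries lay above the untreated ones, but they fell into 2 levels, with replicates 1 and 2 well above replicates 3 and 4. The log2 change was 1.55 ± 0.18 (edgeR adjusted p = 1.7e-06), and 1.39 to 1.72 when each library was left out in turn. In KO cells Jag1 was at 15.3, 17.6, 14.2 and 15.8 CPM without treatment and at 26.8, 30.3, 26.6 and 29.5 CPM with LPA, a log2 difference of 0.85 ± 0.19. All 4 KO libraries with LPA lay below all 4 WT libraries with LPA. The margin was narrow, with the highest KO library at 30.3 CPM and the lowest WT library, replicate 4, at 31.5 CPM. The LPA difference in KO was 0.70 ± 0.26 smaller than in WT on the log2 scale (KO minus WT, -0.70). Of the 8 genes that were higher with LPA in KO, only Jag1 and B3gnt5 (-0.10 ± 0.22) had a smaller LPA difference in KO than in WT. Nothing is read from this tally, since the choice favours large differences in KO and Cgnl1 was nearly equal (0.02 ± 0.16). LPS took Jag1 to 44.1, 52.7, 62.1 and 49.7 CPM in WT (1.61 ± 0.18, edgeR adjusted p = 2.6e-08) and to 53.0, 62.0, 52.7 and 46.6 CPM in KO. These ranges overlapped each other and that of LPA in WT, and LPA against LPS in WT gave -0.06 ± 0.17 (edgeR adjusted p = 0.734). That sign turned with library totals (0.43, edgeR adjusted p = 0.0137).

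Spsb1 and Ctla2a were the genes whose LPA difference in KO was not matched by a call in WT. Spsb1 (chromosome 4, 149896283 to 149955006, minus strand) encodes a SOCS box adaptor that presents proteins, among them the inducible nitric oxide synthase, to a ubiquitin ligase. WT cells had it at 1.66, 1.66, 1.61 and 2.03 CPM without treatment and at 2.62, 1.99, 2.34 and 1.84 CPM with LPA. These ranges overlapped, and the log2 change was 0.34 ± 0.15 (edgeR adjusted p = 0.0723). It passed without WT Cont replicate 4 (0.42, adjusted p = 0.0468 in edgeR) or without WT LPA replicate 4 (0.42, adjusted p = 0.0415 in edgeR). In KO cells it was at 1.92, 1.59, 1.61 and 1.52 CPM without treatment and at 4.16, 3.90, 3.65 and 4.57 CPM with LPA, without overlap, a log2 difference of 1.29 ± 0.17. LPS raised Spsb1 in WT to 5.33, 5.59, 5.87 and 6.94 CPM (1.77 ± 0.15, edgeR adjusted p = 1.1e-10), and in KO it was at 4.53, 5.02, 2.98 and 3.14 CPM. In KO cells the LPA and LPS libraries thus overlapped, whereas in WT the LPS libraries stood above all LPA ones (LPA against LPS, -1.43 ± 0.15, edgeR adjusted p = 5.5e-09). An exon of Spsb1 overlaps the gene Gm13070 on the other strand, and since it is not stated in the sources used here whether counting used the strand, reads from the pair could have been mixed.

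Ctla2a (chromosome 13, 60934155 to 60936625, minus strand) encodes a small inhibitor of cathepsin L-like cysteine proteases that resembles their propeptide. In WT cells it was at 1.77, 1.85, 2.18 and 2.83 CPM without treatment and at 1.75, 1.84, 2.36 and 1.37 CPM with LPA, so the ranges overlapped (-0.23 ± 0.22, edgeR adjusted p = 0.398). In KO cells it was at 2.00, 1.16, 2.08 and 1.80 CPM without treatment and at 5.94, 3.90, 4.18 and 4.61 CPM with LPA, a log2 difference of 1.39 ± 0.23. The 4 LPA-treated KO libraries were above the other 20 of the series. Between libraries of the same number, the log2 differences with LPA in WT were -0.011, -0.008, 0.116 and -1.012. All 4 such pairs in KO were higher with LPA, which already follows from the ranges above and is no added support. The LPA difference was 1.63 ± 0.32 larger in KO than in WT on the log2 scale, between libraries that include those of the choice. LPS lowered Ctla2a in WT to 1.19, 1.18, 1.61 and 0.880 CPM (-0.82 ± 0.23, edgeR adjusted p = 0.00261), and in KO it was at 1.40, 0.495, 0.763 and 1.02 CPM. Of the 51-base stretches of its transcripts, 29.8% also occur in another gene, mostly Gm49391 (24%), whose exons overlap it on the same strand, and 6.80% occur in its paralog Ctla2b. The paralog showed the same profile at a higher level, from 29.2 ± 7.19 to 57.6 ± 12.2 CPM with LPA in KO (0.98 ± 0.19, edgeR adjusted p = 0.00613) and from 34.3 ± 5.38 to 29.2 ± 7.32 CPM in WT (-0.23, edgeR adjusted p = 0.331). Since 90.3% of the stretches of Ctla2b are shared with other genes, how far each gene was measured on its own is uncertain.

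The start region of Ctla2a is shown because it held both an AP-1 motif and a TGACGT core. In chr13:60936576-60936875 (minus strand, RefSeq, GRCm38.p6), capitals mark TGANTCA at -129 and TGACGT at -50 from the start, which do not overlap.
Ctla2a: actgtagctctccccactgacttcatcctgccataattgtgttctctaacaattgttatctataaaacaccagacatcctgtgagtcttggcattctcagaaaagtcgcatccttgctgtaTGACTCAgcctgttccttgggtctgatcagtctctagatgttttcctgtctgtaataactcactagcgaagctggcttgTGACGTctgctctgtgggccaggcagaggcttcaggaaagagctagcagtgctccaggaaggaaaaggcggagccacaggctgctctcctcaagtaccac
A further RefSeq window of Ctla2a with a start downstream covers the same matches. Of the other 8 genes, Hdac9 also held the AP-1 motif, in 1 of its 2 windows (at -57), and B3gnt5 also held TGACGT.

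Hdac9 (chromosome 12, 34047580 to 34917095, minus strand) encodes a histone deacetylase that binds MEF2 transcription factors, and it was the member that LPA lowered. With LPA it fell in WT from 5.59, 7.40, 6.31 and 3.76 CPM to 3.01, 1.99, 3.26 and 2.11 CPM (-1.16 ± 0.22, edgeR adjusted p = 2.5e-04). In KO cells it was at 7.80, 5.50, 5.40 and 9.47 CPM without treatment and at 3.71, 3.34, 3.60 and 2.90 CPM with LPA, a log2 difference of -1.06 ± 0.23. LPA libraries lay below untreated ones in both genotypes, and the difference between the genotypes was 0.10 ± 0.31. With LPS, Hdac9 was at 5.57, 5.29, 4.56 and 3.80 CPM in WT (-0.27 ± 0.21, edgeR adjusted p = 0.246) and at 5.72, 2.97, 4.37 and 4.08 CPM in KO. In WT its level with LPA was below that with LPS (-0.89 ± 0.22, edgeR adjusted p = 9.1e-04), a call that was lost with library totals (-0.39, edgeR adjusted p = 0.113). Neighbours in the order of its 6 group means all overlapped.

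Set against each other directly, LPA and LPS left WT cells with 5 of the genes higher after LPA, 3 lower and Jag1 not called, where edgeR called 78.9% of all genes (41.1% higher and 37.8% lower, or 80.3% of calls higher with library totals in place of 52.1%). The ranges did not overlap for 7 of the 9 (71.4% of all genes). Both treatments were compared with the same untreated libraries, so these 3 comparisons are not independent. The 4 genes of the first profile stood furthest apart, with log2 differences of 3.26 ± 0.37 for Cspg4 (edgeR adjusted p = 2.8e-08), 3.19 ± 0.23 for Pald1 (2.4e-11), 3.01 ± 0.13 for Cgnl1 (3.5e-15) and 2.28 ± 0.18 for Chst3 (5.8e-11). Ctla2a was higher after LPA than after LPS by 0.59 ± 0.24 (edgeR adjusted p = 0.0283), and this call was lost without WT LPS replicate 1, 2 or 4 or without WT LPA replicate 3.

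After LPS, 1 of the 9 genes was called between KO and WT cells, as lower in KO, and none was called as higher, where edgeR called 2.85% of all genes (0.69% higher and 2.16% lower). The 1 was Spsb1, lower in KO by -0.59 ± 0.15 (edgeR adjusted p = 0.0362), with libraries at 2.98 to 5.02 CPM in KO and 5.33 to 6.94 CPM in WT that did not overlap (9.58% of all genes did not). This call is weakly held, since it was lost with library totals, with only the compared libraries and in 5 of the 8 fits that left out a library. It was also lost with the replicate block, but the labels do not link replicate numbers between genotypes. The log2 differences of the other 8 lay between -0.40 ± 0.30 for Ctla2a and 0.44 ± 0.62 for Cspg4, and these intervals do not show that the genotypes were alike. The LPS change within KO cells had the direction seen in WT for all 9 genes, from -1.89 ± 0.22 for Chst3 to 2.59 ± 0.16 for B3gnt5.

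**Figure D3:**
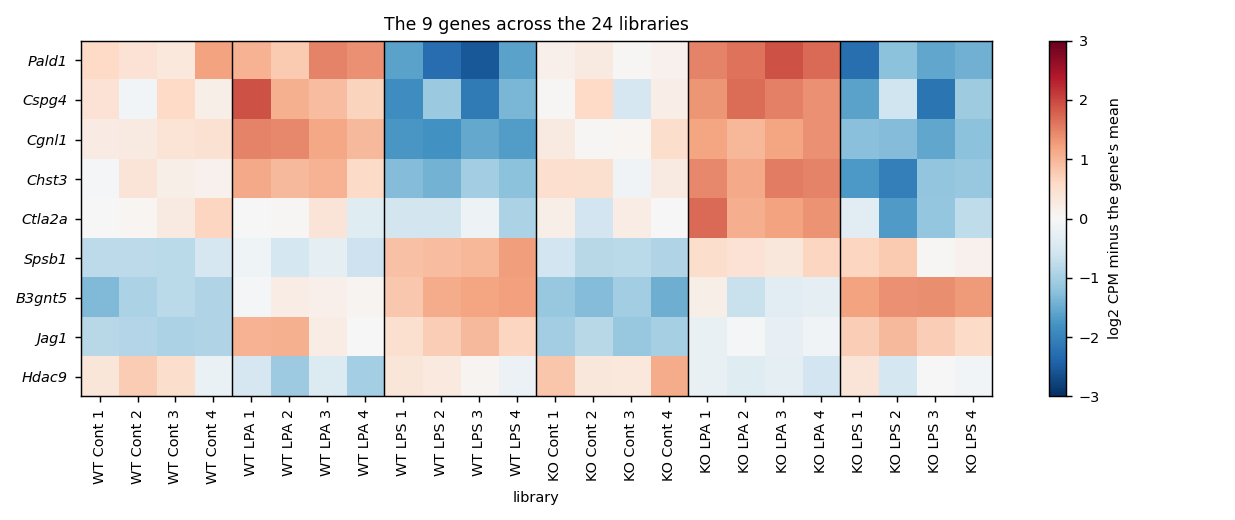
Log2 CPM of the 9 genes (rows) in the 24 libraries (columns, grouped by genotype and treatment), each minus the gene's mean over all libraries, with red above and blue below that mean. The upper 4 rows are red in the LPA and blue in the LPS columns of both genotypes, Ctla2a is red in the 4 KO LPA columns, and Hdac9 is at its lowest in WT LPA.

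Across the 24 libraries, the log2 CPM of Pald1, Cspg4, Cgnl1 and Chst3 were correlated with Pearson coefficients of 0.901 to 0.951 over their 6 pairs. Within B3gnt5, Jag1 and Spsb1 the 3 coefficients were 0.692 to 0.887, and between the 4 genes and the 3 genes they were -0.668 to -0.328. These describe the same 6 group means seen in 9 genes, since all genes share libraries, depth and scaling, and they carry no test. Among 10495 other genes with a mean of at least 2 CPM, the profile most like that of Cgnl1 was Fos (0.981), which encodes a subunit of AP-1, and then Tmem43 (0.979). Fos was also nearest to Chst3 (0.956) and second to Cspg4 (0.951, after Cpt1a at 0.956). Pald1 was nearest to Tgfbr1 (0.972), which encodes a TGF-beta receptor, and Gtf2h2 (0.970). B3gnt5 was nearest to Skil (0.968) and Cd14 (0.967), the latter encoding a co-receptor for LPS. Jag1 was nearest to Ezr (0.953) and Slc7a8 (0.951), and Spsb1 to Mtus1 (0.916) and Notch1 (0.901). Ctla2a was nearest to Pitpnc1 (0.933) and its paralog Ctla2b (0.906). Hdac9 had the least close neighbours, Ndrg1 (0.815) and Inpp4a (0.805).

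The genes of 8 lists written around the 9, which leave the 9 out, were mostly not called with LPA in KO cells. The list of SRF and YAP targets is not a pathway of any of the 9 as described here, and the totals include it. A larger share of the list genes was called than of all genes. The lists were written with earlier results of these data known, so nothing is read from that share. Of 159 such genes in 8 lists, 12 rose and 3 fell in KO (32 called with the replicate block), where edgeR called 2.62% of all genes, and 37 rose and 35 fell in WT, where it called 44.6%. Among 21 Notch pathway genes around Jag1, 3 rose and none fell in KO, and 4 rose and 8 fell in WT. Notch1, a receptor for Jagged1, rose in KO by 0.66 ± 0.10 (edgeR adjusted p = 2.7e-04) and had a change of 0.00 ± 0.09 in WT (edgeR adjusted p = 0.998). Rbpj, the DNA-binding partner of the cleaved receptor, rose in WT by 0.70 ± 0.09 (edgeR adjusted p = 3.1e-06). Among 29 chondroitin sulfate proteins and enzymes, 3 rose and 2 fell in KO, and 10 rose and 6 fell in WT. Xylt1, which starts the linker to which the chains attach, rose in KO by 0.97 ± 0.15 (edgeR adjusted p = 4.8e-04) and was at -0.33 ± 0.14 in WT (edgeR adjusted p = 0.0701). The sulfotransferase gene Chst7 fell in KO by -0.91 ± 0.14 (edgeR adjusted p = 4.9e-04), opposite to Chst3, and in WT the proteoglycan gene Vcan rose by 1.39 ± 0.20 (edgeR adjusted p = 2.6e-05). The median of this list was 0.04 in KO and -0.02 in WT, against -0.01 over all genes in both.

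The remaining lists gave fewer calls in KO. Of 20 glycosphingolipid enzymes, none rose and 1 fell in KO (St3gal6, -1.54 ± 0.35, edgeR adjusted p = 0.0157, lost with only the compared libraries, without KO LPA replicate 1 and without KO Cont replicate 4), while 2 rose and 6 fell in WT (5 called without WT LPA replicate 2), among the risers St3gal5 (1.11 ± 0.12, edgeR adjusted p = 1.1e-06), the sialyltransferase that competes for lactosylceramide. Of 20 histone deacetylase and MEF2 genes, 1 rose and none fell in KO (Mef2d, 0.33 ± 0.07, edgeR adjusted p = 0.00746), and 2 rose and 8 fell in WT. None of 24 SOCS box and cullin ligase genes was called in KO, where edgeR had 1472 of all genes at an unadjusted p below 0.05, and 7 rose and 2 fell in WT (15 called without WT LPA replicate 3). Of 15 cysteine cathepsins and inhibitors, Ctla2b and Ctsl rose in KO (Ctsl by 0.38 ± 0.10, edgeR adjusted p = 0.0471, lost in 7 of 8 fits without a library and with only the compared libraries), and 1 rose and 3 fell in WT (7 called with library totals, with the replicate block, without WT Cont replicate 1 or without WT LPA replicate 3, and 8 with DESeq2). Of 13 SRF and YAP target genes, 1 rose in KO (Thbs1, 1.68 ± 0.37, edgeR adjusted p = 0.0143, lost with only the compared libraries and without KO LPA replicate 1 or KO Cont replicate 3), while 7 rose and none fell in WT, Tpm4 by 1.13 ± 0.09 (edgeR adjusted p = 1.5e-08). With the replicate block the calls in KO were 6 for the Notch list, 4 for the glycosphingolipid enzymes, 4 for the histone deacetylase and MEF2 genes and 5 for the SRF and YAP targets.

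**Figure D4:**
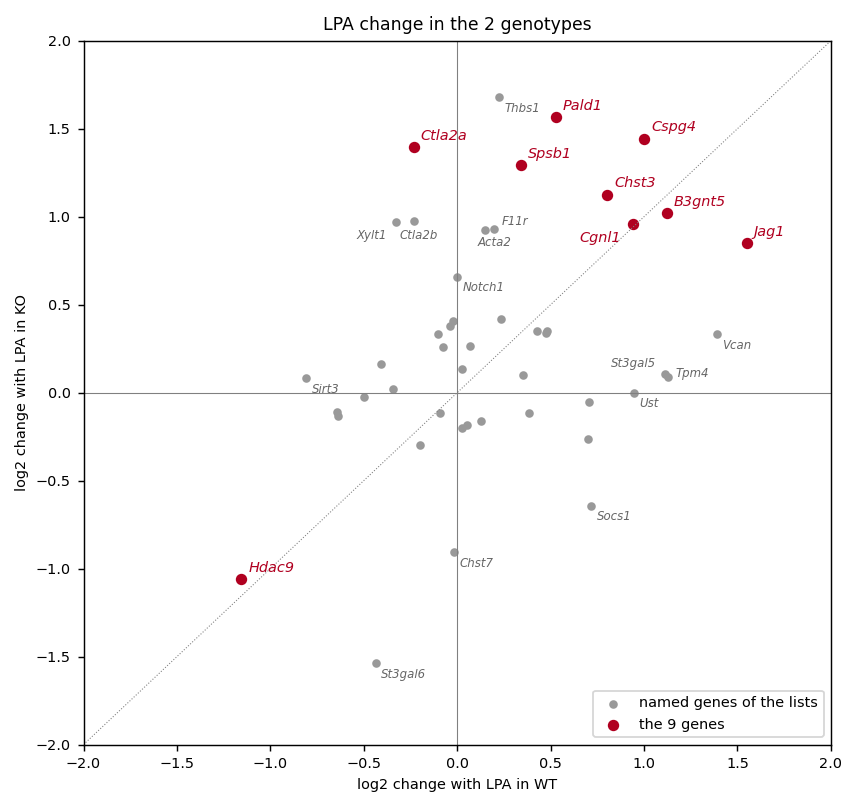
Log2 change with LPA in WT (horizontal axis) and in KO (vertical axis) for the 9 genes (red) and 38 genes named from the lists (grey), with a dotted line where both are equal. The 9 genes were chosen for a large change in KO, Cgnl1, B3gnt5 and Hdac9 lie near the line, Jag1 below it and Ctla2a, Spsb1 and Pald1 well above it.

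The libraries carried the macrophage markers, all 10 of which were measured with a summed level of 34721 to 48667 CPM. Lyz2 made up much of the sum, with 24600 of 39122 CPM on average in untreated WT. With LPA in WT, Cd14 rose (1.24 ± 0.13, edgeR adjusted p = 7.0e-07) and Mertk fell (-0.65 ± 0.09, edgeR adjusted p = 1.7e-05). None of the 10 was called with LPA in KO. With LPS in WT 5 rose and 5 fell, where edgeR called 84.2% of all genes. Because Cspg4 and Pald1 are also known from pericytes and vessels, markers of other cells were set beside them. Cgnl1 is also known from epithelia, for which no marker list was used. Of 11 pericyte and smooth muscle markers only Acta2 and Pdgfrb were measured, with a summed 1.52 to 2.33 CPM in untreated KO and 1.98 to 3.65 CPM in LPA-treated KO libraries, which overlap. Of 15 fibroblast and stromal markers 5 were measured, and their sum was 3.46 to 9.85 CPM in untreated and 12.4 to 17.7 CPM in LPA-treated KO libraries, without overlap. On average in these groups Col1a1 was at 0.512 and 2.11 CPM, Col1a2 at 0.511 and 2.26 CPM, Fn1 at 4.33 and 8.46 CPM, Sparc at 0.628 and 1.52 CPM and Pdpn at 0.526 and 0.678 CPM, and none of the 5 was called. In WT the sums were 8.25 to 11.9 CPM without treatment and 11.1 to 13.7 CPM with LPA, which overlap, and Pdpn was the 1 called there (1.51 ± 0.33, edgeR adjusted p = 9.7e-04). WT LPS replicate 1 stood apart at 33.1 CPM. Of 13 endothelial markers 6 were measured, at a summed 157.7 to 177.7 CPM in untreated and 149.9 to 168.9 CPM in LPA-treated KO libraries. Eng made up much of this sum, with 116.5 of 166.3 CPM on average in untreated KO. The sum therefore says little about the less abundant markers. With LPA in KO 1 of the 6 markers rose and 1 fell, where 1.56% of all genes were called higher and 1.06% lower. Pecam1 rose from 6.78 to 16.6 CPM (1.29 ± 0.31, edgeR adjusted p = 0.0266), with overlapping ranges, and Kdr fell from 9.96 to 6.08 CPM (-0.72 ± 0.19, edgeR adjusted p = 0.0411). In WT the endothelial sums were 166.6 to 193.1 CPM without treatment and 173.5 to 228.1 CPM with LPA, which overlap. With LPA in WT 3 of the 6 rose and none fell, where 23.5% of all genes were called higher and 21.1% lower. The 3 that rose were Kdr (1.12 ± 0.15, edgeR adjusted p = 8.1e-06), Cdh5 (1.63 ± 0.37, edgeR adjusted p = 0.00135) and Eng (0.22 ± 0.08, edgeR adjusted p = 0.0288). The pericyte and smooth muscle sums in WT were 1.75 to 2.92 CPM and 1.73 to 3.45 CPM, and neither marker was called. Of 13 T, NK and B cell markers only Cd4 was measured, at 62.7 to 88.9 CPM in untreated and 59.8 to 96.6 CPM in LPA-treated KO libraries. Of the mast cell, dendritic cell and neutrophil markers, 1 of 10, 2 of 8 and 9 of 10 were measured, and none was called with LPA in KO. With LPA in WT, Hdc of the mast cell list rose (0.77 ± 0.16, edgeR adjusted p = 7.1e-04), and Cd4 (-0.43 ± 0.15, 0.0257), Kmo of the dendritic cell list (-1.82 ± 0.26, 1.5e-05) and Ltf of the neutrophil list (-0.64 ± 0.25, 0.0419) fell. These calls are to be read against the 44.6% of all genes called in that comparison. The part of such cells in the LPA differences of the 9 genes was not tested, and in bulk RNA more cells of a kind cannot be told apart from more RNA per cell.

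**Figure D5:**
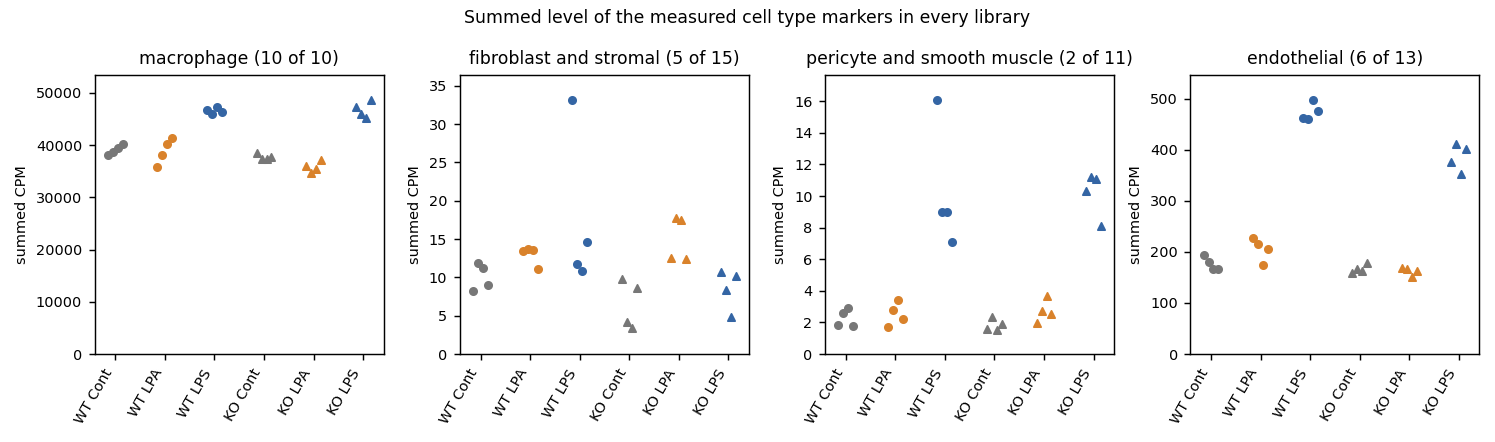
Summed CPM of the measured markers of macrophages, fibroblasts and stromal cells, pericytes and smooth muscle, and endothelium (vertical axes, each starting at 0) in the 24 libraries by group. Fibroblast and stromal sums are higher in the KO LPA libraries (12.4 to 17.7 CPM) than in the KO Cont libraries (3.46 to 9.85 CPM), and WT LPS replicate 1 stands apart at 33.1 CPM.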

How the data were processed

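The deposited table held gene counts that the authors made from stranded mRNA libraries read as paired 51-base ends. Reads were aligned with STAR 2.5.2a to mm10, per the submitters' processing notes, while the tool that counted them, whether it used the strand and which gene models it used are not stated there. Every column matched a sample by its label, and 0 columns were left over. The table held 11590 genes (9 without a symbol, smallest total 170 counts), so rarer genes were not analysed here. The 36 replicate pairs were separate libraries (chi-square over degrees of freedom from 4.09 to 77.3).

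Tests used edgeR 4.0.16 in R 4.3.3 (TMM factors of 0.739 to 1.18, robust quasi-likelihood F test, 6 group means over 24 libraries, 18 residual degrees of freedom), with Benjamini-Hochberg adjustment over all genes and calls below 0.05. filterByExpr removed no gene. CPM are counts per M counts of the library, scaled by TMM, and log2 CPM used a prior count of 2. The standard error is the log2 change divided by the square root of F. For precision, depth was 32.0 to 46.7 M counts in WT and 15.2 to 21.5 M in KO.

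Alternatives were DESeq2 1.42.0, median-ratio factors, library totals, no filter and a filter of 50 counts in 4 libraries. Others were only the compared libraries, each library left out and the replicate number as a block. For comparisons within a genotype, the compared libraries were all those of that genotype, whatever their treatment. For KO against WT with LPS they were the LPS libraries. The block was fitted to these same libraries, so it differs from the main test in its libraries as well. For comparisons given with no test, DESeq2, the scalings and the filters were added after seeing the data. Same-numbered libraries deviated together between untreated and LPA in WT (correlation of at least 0.211) and between treatments in KO (0.114 to 0.772). Between LPS and the other treatments in WT the correlations were 0.0692 to 0.299, and between genotypes with LPS they were -0.194 to -0.00483. No main test paired libraries by number. The numbers entered only the block fits and the same-number differences given for Ctla2a.

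The 9 genes and all lists were chosen with earlier results of these data known. Beside the 9, the text names from each list up to 3 genes with the smallest adjusted p for LPA in KO and up to 2 in WT, with examples drawn from these (1 of the 8 lists is not reported here on its own), and the 2 genes most correlated with each of the 9, and cell type markers that were called or whose sums moved, chosen after their values were seen. Positions and start regions are RefSeq's (GRCm38.p6), and shared 51-base stretches were counted in GENCODE M21 transcripts.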

Additional observations from a re-analysis of the deposited data

Results flagged for a closer look

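In 1 of 54 sets of 4 libraries (9 genes in 6 groups), a library stood apart from its group. Spsb1 in WT Cont replicate 4 was at 2.03 CPM while the other 3 were at 1.61 to 1.66 CPM, a gap of 0.881 of the whole range, above Dixon's 95% critical value. Chance flags about 1 in 20 groups. Without that library the change of Spsb1 with LPA in WT was called (0.42, edgeR adjusted p = 0.0468).

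The LPA change differed between the genotypes in 26 of the 38 genes named from the gene lists (edgeR test of the difference, adjusted p below 0.05 over all genes), against 28.5% of all genes. The 38 had been named for a small p in one genotype, so their share is not comparable with that background. The following values are the change in KO minus that in WT on the log2 scale. In the Notch list it was -0.96 for Rbpj, -0.50 for Adam17, 0.66 for Notch1 and 0.43 for Dtx4. Among chondroitin sulfate genes it was -0.95 for Ust, -1.06 for Vcan, 1.29 for Xylt1 and -0.89 for Chst7. Among glycosphingolipid enzymes it was 0.51 for St3gal4 and -1.01 for St3gal5. Among histone deacetylase and MEF2 genes it was 0.57 for Hdac5, 0.89 for Sirt3, 0.43 for Mef2d and 0.33 for Mef2a. Among SOCS box genes it was 0.54 for Socs6, -0.29 for Wsb1 and -1.36 for Socs1. Among cathepsins and inhibitors it was 0.47 for Serpinb6a, 0.36 for Lgmn, 1.21 for Ctla2b and 0.42 for Ctsl. It was 0.73 for F11r. Among SRF and YAP targets it was -1.04 for Tpm4, -0.76 for Vcl, 1.45 for Thbs1 and -0.24 for Tpm1. Genotype went with lane and depth, whose part was not tested.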

How the results depend on the processing

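Over 15 alternatives, 125 of 134 values of the 9 genes for LPA in WT kept their direction and side of the threshold, as did 133 of 134 for LPS in WT, 125 of 134 for LPA against LPS and 120 of 130 for KO against WT with LPS. The filter of 50 counts left Cspg4 out, so 6 of the 9 were then called for LPA in WT. The sign of Jag1 for LPA against LPS in WT turned with library totals (0.43) and without WT LPA replicate 3 (0.05), WT LPS replicate 3 (0.03) or WT LPA replicate 4 (0.10), in a range of -0.23 to 0.10 with a library left out. For KO against WT with LPS it turned without WT LPS replicate 1 (-0.03) or KO LPS replicate 2 (-0.037), in a range of -0.037 to 0.14. The causes were not tested.

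For KO against WT with LPS, 330 genes were called in the main test, 581 with DESeq2, 131 with only the compared libraries, and 65 (without WT LPS replicate 3) to 577 (without WT LPS replicate 1) with a library left out. With the replicate block 0 were called by edgeR, and 1723 had an unadjusted p below 0.05. The labels do not link replicate numbers between genotypes, and same-numbered LPS libraries did not deviate together. This block therefore cannot decide how firm the calls are. The called members of this comparison, 1 in the main test, numbered 0 with library totals, with only the compared libraries and with the block. They numbered 0 to 1 with a library left out. Calls in KO against WT with LPS were 78.2% higher with library totals against 24.2% in the main test. For LPA in KO, 304 genes were called in the main test, 461 with DESeq2, 875 with the replicate block (292 shared) and 168 to 310 with a library left out, and of the list genes 15 and, with the block, 32. The block changed no other call of the 9 genes. Cspg4 with LPS rests on 2 to 6 counts per library in WT and 1 to 5 in KO.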
